A study of Mus musculus with 7 samples.

Results

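Histone acetyltransferases attach acetyl groups to lysines of histone tails, and histone deacetylases and sirtuins remove them. A list of 34 genes was examined, which holds these enzymes with the coactivators and scaffold proteins that carry them, in single germinal vesicle (GV) oocytes, which are fully grown and still arrested in meiosis. A gene of the list was taken from the deposited table where a transcript carried its name on its own strand, and the transcript with the highest mean was used where there were several. By this rule 26 of the 34 genes were found among 33437 oocyte transcripts. Of the remaining 8, 7 lie under transcripts named after overlapping genes and were matched by position to their annotated gene after the data had been seen, and Hdac10 matched none. Genes matched by position are named as such.

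The oocytes came from 21-day-old females, labelled C57BL6 (C57BL/6OlaHsd in the study's methods) and Setd1b floxed/floxed in both groups. In Setd1b cKO females (4 libraries) Gdf9-Cre was present, which is active only in oocytes and excises from early folliculogenesis on, so transcripts made before that stage were made with an intact gene. Setd1b WT females (3 libraries) are labelled Gdf9-Cre negative, whereas the methods also count females with Gdf9-Cre and 1 intact Setd1b allele as Setd1b WT. Whether any of the 3 libraries came from such a female cannot be told from the sources used here. Each library was amplified cDNA of 1 oocyte. Which oocytes came from the same female is not given, so p-values measure the spread between these libraries.

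Acetylation loosens the contact of histones with DNA and is bound by proteins with bromodomains, and it commonly marks active promoters and enhancers together with methylation of histone H3 at lysine 4, the mark that SETD1B deposits. Class I deacetylases work in the NuRD, Sin3, CoREST and NCoR corepressor complexes, several of which also read or remove H3K4 methylation. Sirtuins need NAD and acetyltransferases need acetyl-CoA. In growing oocytes Hdac1 and Hdac2 partly stand in for each other. The comparison asks which of these genes had a different transcript level when Setd1b was deleted during oocyte growth.

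Levels are given in RPM, in which the read number of each transcript is divided by the depth of the library, a relative scale that does not give the amount of RNA in an oocyte. The libraries held 8582493 to 12972366 mapped reads, so that 1 read was worth 0.0771 to 0.117 RPM, and a count of 0 allows up to 3 reads, which is 0.231 to 0.350 RPM and covers counting error only. The share of mapped reads within the transcripts was 83.6%, 85.7%, 86.8% and 85.6% in Setd1b cKO and 90.4%, 90.1% and 90.3% in Setd1b WT, so it was lower in every Setd1b cKO library. Scaled to the reads within transcripts, the median log2 fold change of all transcripts was 0.20, and the values of Hdac1 and Sirt1 described below were 1.55 and 0.95. The filter asked for 1 RPM or more in 3 or more libraries, which 18179 transcripts passed, and these were tested with limma on log2(RPM + 1). A gene was called where the Benjamini-Hochberg adjusted p over all transcripts was under 0.05 and the change over 2-fold. Of all transcripts 3.76% were called higher and 1.95% lower in Setd1b cKO, that is 683 and 355, and the split was 458 and 531 once libraries were centred on the median gene and 428 and 442 with quantile normalisation. The median log2 fold change of all transcripts was 0.12 and moved to -0.03 with centring. The Setd1b transcript itself ran from 2.68 to 16.7 RPM in Setd1b cKO and from 8.61 to 17.7 RPM in Setd1b WT, and since the floxed segment is only a part of the gene, this level gives no check of the labels. Of 12 oocyte markers 11 were found, with sums of 20998 to 23409 RPM in Setd1b cKO and 24806 to 27441 RPM in Setd1b WT. All 22 granulosa cell markers were found, with sums of 176 to 421 RPM and 112 to 329 RPM, and 4 of them, Amh, Foxl2, Gatm and Krt18, had at most 3 reads in every library. Most of the sums came from Cdh2, Serpine2, Nr5a2 and Cyp19a1. Cdh2 ran from 48.0 to 124 RPM in Setd1b cKO and from 15.3 to 66.1 in Setd1b WT, and Serpine2 from 44.9 to 200 and 43.0 to 213. Nr5a2 ran from 32.5 to 50.8 and 27.4 to 28.3, and Cyp19a1 from 19.5 to 30.6 and 17.1 to 27.3. Whether these reads came from granulosa cells was not tested.

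Replicate 4 of Setd1b cKO and replicate 3 of Setd1b WT stood apart from the other libraries on the second principal component. Among the 29 acetylation genes past the filter, replicate 4 was the lowest Setd1b cKO library for 18 and replicate 3 the lowest Setd1b WT library for 22, against 37.4% and 40.4% of all transcripts. The part of these libraries in the results was not tested beyond leaving them out.

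Among the acetylation genes Hdac1, a class I deacetylase, rose in Setd1b cKO oocytes, and it was the only gene of the list past the threshold. Sirt1, a nuclear sirtuin, was higher by less than 2-fold. Sirt5 and Kat6b had lower levels in every Setd1b cKO library than in any Setd1b WT library, and Ncoa2 had higher ones, but none of the 3 passed the test. The other acetyltransferases and deacetylases overlapped between genotypes.

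By name, 23 of the 26 genes found passed the filter. Of these 1 was called higher and 0 were called lower by limma, against 3.76% and 1.95% of all transcripts (5.71% in either direction), so that the share of called genes was close to the background. The test by voom on the recovered reads gave the same counts. Without the fold threshold 2 were called higher, against 3.96% of all transcripts, and 0 lower, against 2.19%. At an unadjusted p under 0.05, 5 of the 23 passed, against 21.7% of all transcripts. Every Setd1b cKO library lay above every Setd1b WT library for 3 genes and below for 2, against 13.2% and 7.14% of all transcripts (20.3% in either direction), and 18 genes overlapped. The median log2 fold change of the 23 was 0.11, beside 0.12 for all transcripts, and the range was -0.77 to 1.47. The 6 tested genes matched by position all overlapped between genotypes, with a median of -0.04. With them included, 14 deacetylases and sirtuins had a median of 0.15 and 12 acetyltransferases and coactivators a median of -0.05. Direction was split in the same way, with 10 of 14 deacetylases and sirtuins and 5 of 12 acetyltransferases and coactivators above 0, beside 60.3% of all transcripts. The difference between these lists was not tested.

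**Figure D1:**
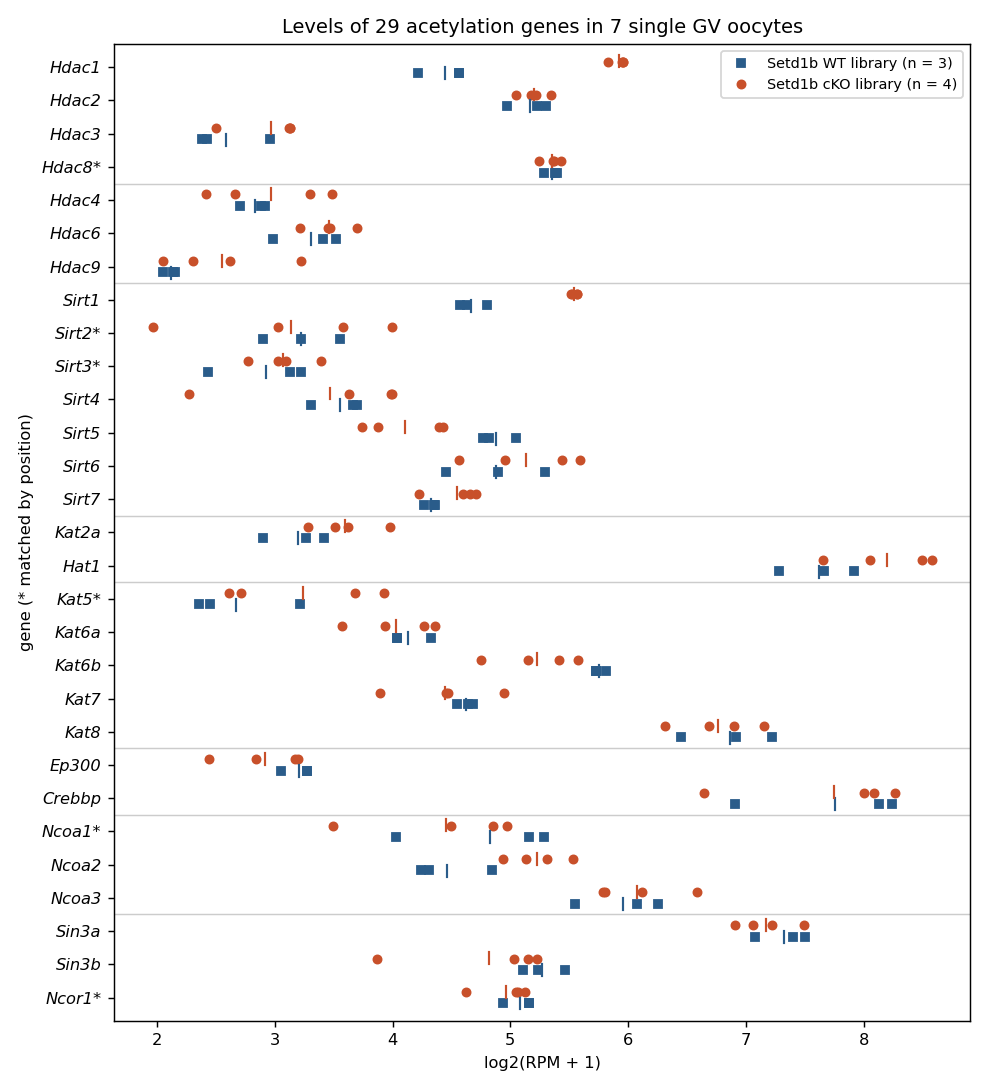
Levels of the 29 acetylation genes past the filter, as log2(RPM + 1) on the horizontal axis, for each of 4 Setd1b cKO (circles) and 3 Setd1b WT (squares) libraries, with vertical ticks at the group means and grey lines between enzyme classes. The Hdac1 and Sirt1 libraries fall into separate groups, whereas Hdac2 and Hdac8, at a log2 fold change of 0.03 and -0.0018, overlap between the genotypes.

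Hdac1, the class I deacetylase at chromosome 4, 129516104 to 129542713 (GRCm38, minus strand, with no other transcript overlapping it), was at 60.6, 60.9, 60.9 and 55.8 RPM in the Setd1b cKO libraries. In the Setd1b WT libraries it was at 22.7, 22.6 and 17.6 RPM. The genotypes did not overlap, and the lowest Setd1b cKO library was far above the highest Setd1b WT library. The means were 59.5 ± 2.48 (SD, n = 4) and 21.0 ± 2.91 RPM (SD, n = 3), a 2.84-fold difference. The log2 fold change was 1.47 (SE 0.20, 95% interval 1.02 to 1.92, adjusted p by limma = 0.00417), and it ranked 81 of 18179 transcripts by p. Hdac1 was called in each of the 21 other settings tried, with an adjusted p of at most 0.0239.

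Hdac2, its closest relative and the other catalytic subunit of the same complexes, was at 32.1, 35.1, 36.1 and 39.7 RPM in Setd1b cKO and at 30.3, 36.5 and 38.5 RPM in Setd1b WT. These ranges overlapped throughout, and the log2 fold change was 0.03 (SE 0.21, 95% interval -0.43 to 0.48, adjusted p by limma = 0.960). Its sign changed with the scaling. Per kilobase of exon, the scale on which levels of different genes can be compared, the order of the genes differed between the genotypes. In the Setd1b WT libraries Hdac1 was at 6.58, 6.56 and 5.11 RPM per kb and Hdac2 at 6.77, 8.15 and 8.62, so that Hdac1 was the lower in all 3, though only slightly in replicate 1, where the order rests on the annotated exon lengths. In the Setd1b cKO libraries Hdac1 was at 17.6, 17.7, 17.7 and 16.2 RPM per kb and Hdac2 at 7.17, 7.84, 8.08 and 8.88, so that Hdac1 was the higher in all 4.

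Hdac8, a class I deacetylase that acts outside these complexes and was matched by position, ran from 36.9 to 42.1 RPM in Setd1b cKO and from 37.9 to 41.0 RPM in Setd1b WT. Its log2 fold change was -0.0018 (95% interval -0.43 to 0.42). Hdac3, the catalytic subunit of the NCoR complex, was at 7.72, 7.74, 7.75 and 4.66 RPM in Setd1b cKO and at 4.37, 6.78 and 4.21 RPM in Setd1b WT. Setd1b cKO replicate 4 fell among the Setd1b WT libraries, and the log2 fold change of 0.38 did not pass (adjusted p by limma = 0.506).

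The class II and IV deacetylases, several of which shuttle between nucleus and cytoplasm, were low in these oocytes. Hdac4, Hdac6 (a deacetylase of tubulin) and Hdac9 passed the filter, with means between 3.34 and 10.1 RPM, and had log2 fold changes of 0.13, 0.15 and 0.43 with overlapping libraries and adjusted p of at least 0.492. Hdac5, Hdac11 and Hdac7, the last matched by position, were below the filter. Hdac5 had 1 read in 1 Setd1b cKO library and 2 reads in 1 Setd1b WT library. Hdac7 had 6 reads in 1 Setd1b WT library and 0 in the others. Hdac11 had 6, 1, 16 and 3 reads in Setd1b cKO and 7, 1 and 0 in Setd1b WT. At these counts no difference was detectable.

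The sirtuins lay on both sides of 0. Of the 7 tested, 0 were called by limma or voom (1 passed the adjusted p alone and 2 had an unadjusted p under 0.05), 4 were above 0 and their median log2 fold change was 0.14. Over all transcripts 3.76% were called higher and 1.95% lower, 3.96% and 2.19% passed the adjusted p alone, 21.7% had an unadjusted p under 0.05 and 60.3% were above 0. Sirt1, which deacetylates histones and transcription factors in the nucleus (chromosome 10, 63319005 to 63339604, minus strand), was at 44.6, 46.3, 46.4 and 45.1 RPM in Setd1b cKO. In Setd1b WT it was at 22.8, 23.8 and 26.9 RPM. The genotypes did not overlap. The Setd1b cKO libraries had a coefficient of variation of 1.92%, less than counting error alone gives on average at their 387 to 562 reads. The closeness of these libraries was therefore not read as a trait of the gene. The means were 45.6 ± 0.877 (SD, n = 4) and 24.5 ± 2.09 RPM (SD, n = 3), a 1.86-fold difference. The log2 fold change was 0.87 (SE 0.19, 95% interval 0.44 to 1.30, adjusted p by limma = 0.0259), under the fold threshold. The adjusted p stayed under 0.05 in 15 of 21 other settings but in only 2 of the 7 that left out a library, and was 0.114 without Setd1b WT replicate 1 and 0.0604 with centring on the median gene.

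Sirt5, a mitochondrial sirtuin that removes succinyl and malonyl groups (chromosome 13, 43364022 to 43395202, plus strand), was at 20.0, 20.6, 13.7 and 12.4 RPM in Setd1b cKO and at 32.1, 27.3 and 26.2 RPM in Setd1b WT. Every Setd1b cKO library was below every Setd1b WT library, with means of 16.7 ± 4.24 (SD, n = 4) and 28.5 ± 3.12 RPM (SD, n = 3). The log2 fold change was -0.77 (SE 0.25, 95% interval -1.33 to -0.21) and did not pass the adjustment (adjusted p by limma = 0.102). The other sirtuins overlapped between genotypes. The mitochondrial Sirt3 (matched by position, and overlapped by opposite-strand transcripts of up to 7.31 RPM, about its own level) and Sirt4 had log2 fold changes of 0.14 and -0.09, the nuclear Sirt6 and Sirt7 0.25 and 0.22, and the mainly cytoplasmic Sirt2 (matched by position) -0.08.

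SETD1B complexes contain CXXC1, a protein that binds CG dinucleotides without methylation, so the CG content of the promoters of the genes whose libraries did not overlap is shown here. RefSeq promoter sequences (GRCm38) were at hand for 28 of the 33 genes that have a transcript in the table, among them Sirt1, Sirt5 and Kat6b. For Hdac1, Hdac3, Kat6a, Ncoa2 and Ncoa3 there was none. The 250 bases before the RefSeq start are printed 5′ to 3′ on the strand of the gene, with each CG in capitals. The bases just after the RefSeq start were found in a GENCODE transcript of the gene for Sirt1 and Kat6b, but not for Sirt5.

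Sirt1, chr10:63339036-63339285, minus strand: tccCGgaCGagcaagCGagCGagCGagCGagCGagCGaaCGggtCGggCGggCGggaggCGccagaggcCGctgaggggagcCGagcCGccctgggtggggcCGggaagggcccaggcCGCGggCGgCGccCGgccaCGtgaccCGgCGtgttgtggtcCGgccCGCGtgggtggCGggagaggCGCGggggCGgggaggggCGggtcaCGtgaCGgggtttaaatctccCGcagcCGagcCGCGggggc

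Sirt5, chr13:43365285-43365534, plus strand: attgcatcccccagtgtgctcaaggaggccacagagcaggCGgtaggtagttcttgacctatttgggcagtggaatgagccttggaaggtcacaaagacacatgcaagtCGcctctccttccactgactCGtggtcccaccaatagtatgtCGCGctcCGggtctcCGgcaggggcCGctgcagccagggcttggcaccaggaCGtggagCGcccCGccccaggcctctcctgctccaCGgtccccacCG

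Kat6b, chr14:21499520-21499769, plus strand: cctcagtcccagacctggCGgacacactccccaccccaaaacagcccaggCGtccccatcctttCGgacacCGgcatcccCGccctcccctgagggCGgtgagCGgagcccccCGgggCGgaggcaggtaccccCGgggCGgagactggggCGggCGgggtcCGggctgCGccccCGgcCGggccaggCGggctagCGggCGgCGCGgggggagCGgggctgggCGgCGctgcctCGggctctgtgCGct

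The Sirt1 window held 39 CG, which 1.56% of 32851 promoters reached. Kat6b had 27 (8.56% of promoters) and Sirt5 had 13 (31.5%). CG reads the same on both strands, and 92.1% of all promoters held at least 1. The 28 genes had a median of 13.5 CG, beside 6 for all promoters, and 12 of them were at or above the upper quartile of all promoters, which is 16. The oocyte transcript started 569 bases upstream of the RefSeq start for Sirt1, 1513 for Sirt5 and 18336 for Kat6b, so each printed window lies within the span of the oocyte transcript, and 16 of the 28 genes started within 500 bases of the RefSeq start. A CG count describes the sequence and was not tested against the change in level.

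The acetyltransferases and nuclear receptor coactivators showed no call in either direction (0 of 12 tested in limma at any fold, 0 by voom, and 2, Kat6b and Ncoa2, at an unadjusted p under 0.05). Over all transcripts 3.96% passed the adjusted p at any fold as higher and 2.19% as lower, voom called 443 higher and 328 lower of 18179, and 21.7% had an unadjusted p under 0.05, so that 0 calls among 12 genes was close to the background. Among the GNAT enzymes Hat1, which acetylates newly made histone H4, was at 263, 359, 379.6 and 201 RPM in Setd1b cKO and at 201, 239.6 and 155 RPM in Setd1b WT. Setd1b cKO replicate 4 lay at the level of the Setd1b WT libraries, and the log2 fold change of 0.57 (95% interval -0.02 to 1.17) did not pass (adjusted p by limma = 0.250). The adjusted p by limma was 0.0441 in the fit with a replicate block. Kat2a, the catalytic subunit of the SAGA and ATAC coactivators, was at 10.4, 8.73, 14.8 and 11.3 RPM in Setd1b cKO and at 9.72, 8.63 and 6.46 RPM in Setd1b WT. These overlapped, with a log2 fold change of 0.40 (adjusted p by limma = 0.436). Its relative Kat2b had 2, 0, 10 and 0 reads in Setd1b cKO and 0 reads in each Setd1b WT library, which was too few to compare.

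Among the MYST enzymes Kat6b, the catalytic subunit of the MORF complex (chromosome 14, 21481434 to 21672478, plus strand), was at 46.5, 34.5, 41.5 and 26.0 RPM in Setd1b cKO. In Setd1b WT it was at 55.2, 52.0 and 51.9 RPM. The genotypes did not overlap, although the gap between the nearest libraries was small beside the spread in Setd1b cKO, with means of 37.1 ± 8.92 (SD, n = 4) and 53.0 ± 1.90 RPM (SD, n = 3). The log2 fold change was -0.53 (SE 0.24, 95% interval -1.06 to -0.01) and did not pass (adjusted p by limma = 0.221).

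Kat5, the TIP60 acetyltransferase, matched by position, was at 14.3, 11.9, 5.57 and 5.13 RPM in Setd1b cKO and at 8.26, 4.47 and 4.12 RPM in Setd1b WT. The libraries overlapped, with a log2 fold change of 0.56 (adjusted p by limma = 0.457), and an opposite-strand transcript of 3.97 RPM overlaps it. Kat8, which acetylates histone H4 in the MSL and NSL complexes, was at 141, 118, 102 and 78.3 RPM in Setd1b cKO and at 148, 119.6 and 86.2 RPM in Setd1b WT. The genotypes overlapped, with a log2 fold change of -0.10 (adjusted p by limma = 0.879) whose sign changed when Setd1b cKO replicate 4 or Setd1b WT replicate 1 was left out. Kat6a, the relative of Kat6b, and Kat7, the HBO1 acetyltransferase, had log2 fold changes of -0.10 and -0.18 with overlapping libraries.

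Ep300 and Crebbp encode p300 and CBP, the acetyltransferases that act at enhancers. Ep300 was at 4.45, 8.15, 6.18 and 8.04 RPM in Setd1b cKO and at 8.67, 7.32 and 8.70 RPM in Setd1b WT, with a log2 fold change of -0.29 (adjusted p by limma = 0.614). Crebbp was at 255, 305, 271 and 98.9 RPM in Setd1b cKO and at 278, 301 and 119 RPM in Setd1b WT. Both genotypes held 1 low Crebbp library, and these were the libraries that stood apart on the second principal component. The Crebbp log2 fold change was -0.0083 with a 95% interval of -0.95 to 0.94, so that a change of nearly 2-fold in either direction was not detectable. It was 0.36 without Setd1b cKO replicate 4, -0.44 without Setd1b WT replicate 3 and -0.067 without both.

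The nuclear receptor coactivators bring p300 and CBP to hormone receptors. Ncoa2 (chromosome 1, 13139105 to 13374277, minus strand) was at 34.1, 45.2, 29.6 and 38.6 RPM in Setd1b cKO and at 18.9, 27.7 and 17.9 RPM in Setd1b WT. The genotypes did not overlap, with the nearest libraries close to each other, and the means were 36.9 ± 6.65 (SD, n = 4) and 21.5 ± 5.40 RPM (SD, n = 3). The log2 fold change was 0.76 (SE 0.25, 95% interval 0.22 to 1.30) and did not pass (adjusted p by limma = 0.0964). The adjusted p by limma was 0.0493 in the fit with a replicate block. Ncoa3 and Ncoa1, the latter matched by position, had log2 fold changes of 0.11 and -0.37 with overlapping libraries.

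The scaffolds on which class I deacetylases assemble were all slightly below 0. Sin3a, Sin3b and Ncor1, the last matched by position and overlapped by an opposite-strand transcript of 33.1 RPM, had log2 fold changes of -0.16, -0.45 and -0.12, with overlapping libraries and adjusted p of at least 0.485. Sin3b was at 13.6 RPM in Setd1b cKO replicate 4 and between 31.8 and 36.4 RPM in the other Setd1b cKO libraries, beside 33.5 to 43.1 RPM in Setd1b WT.

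**Figure D2:**
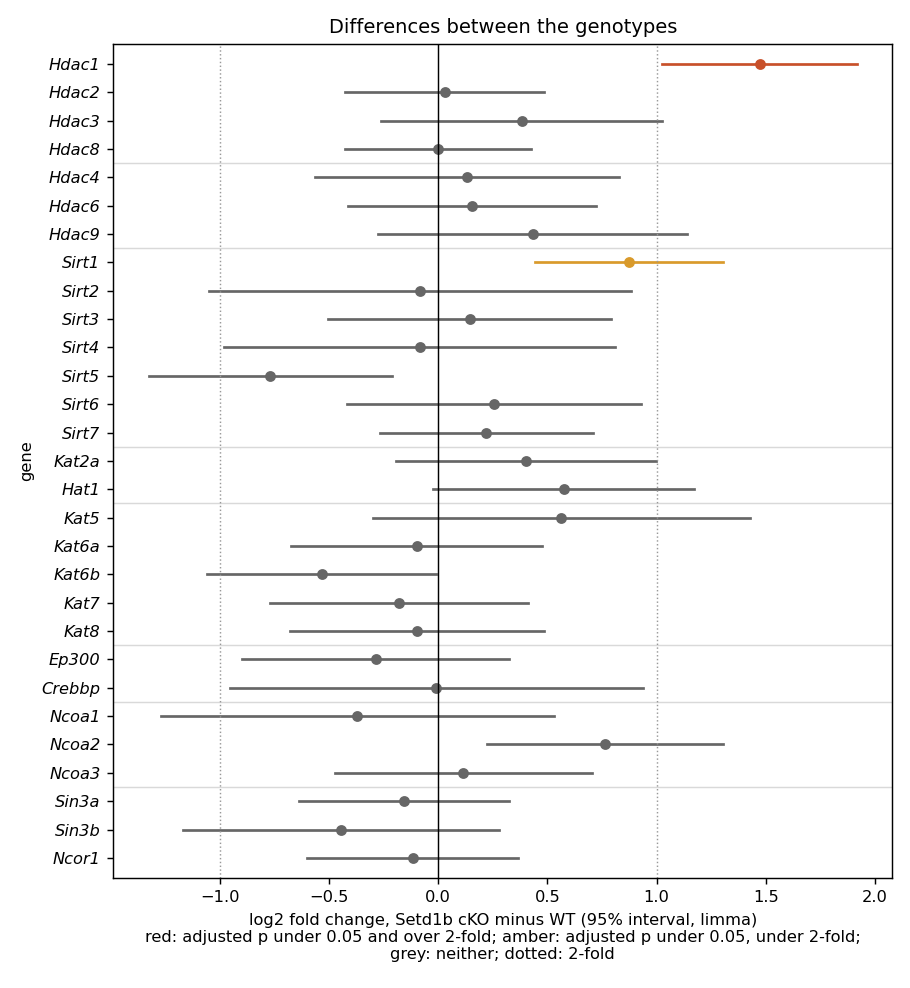
Log2 fold change, Setd1b cKO minus Setd1b WT, of the 29 acetylation genes with 95% limma intervals, by enzyme class and coloured where the adjusted p was under 0.05. Hdac1 at 1.47 and Sirt1 at 0.87 have intervals far from 0, Sirt5 at -0.77 is the lowest, and most intervals include 0.

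**Figure D3:**
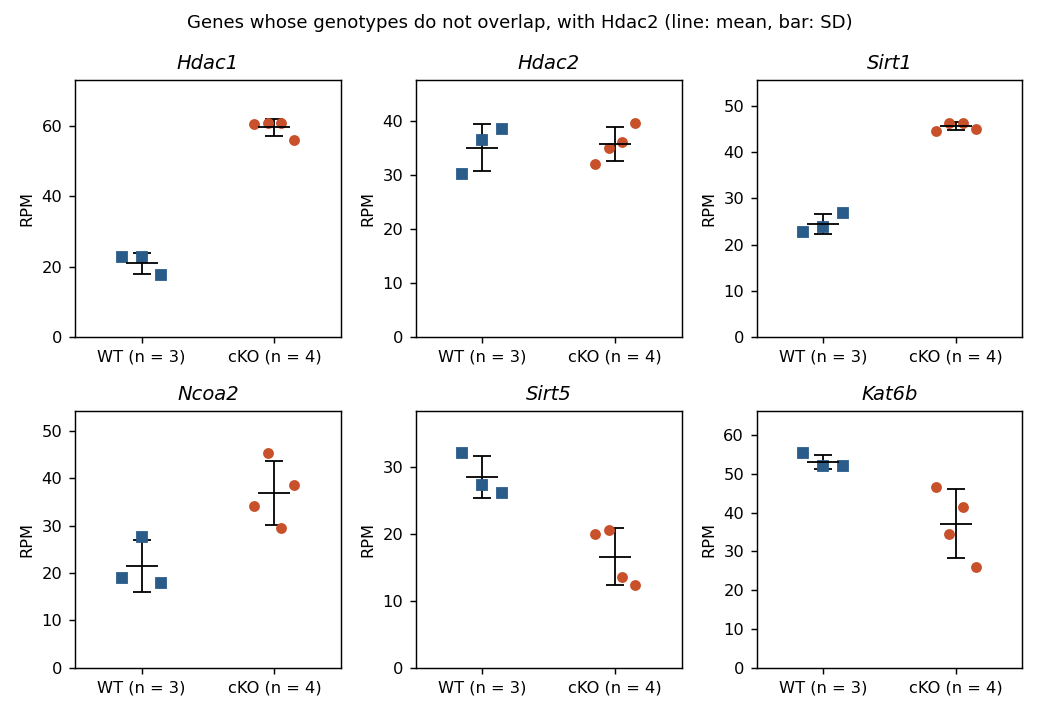
RPM in each library, on linear axes from 0, with group means and SD bars, for the 5 genes whose genotypes did not overlap and for Hdac2. For Hdac1, Sirt1 and Ncoa2 the 4 Setd1b cKO points lie above the 3 Setd1b WT points, for Sirt5 and Kat6b they lie below, and for Hdac2 they overlap.

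Ratios of related genes within a library depend on its scaling only through the 1 RPM added to each level, and 5 pairs with both genes past the filter were compared by a two-sided exact permutation test, which cannot give a p below 0.0286 with 4 libraries against 3. The log2 ratio of Hdac1 to Hdac2 was 0.90, 0.78, 0.74 and 0.48 in Setd1b cKO and -0.40, -0.67 and -1.09 in Setd1b WT. The genotypes did not overlap, and where 0 falls on this scale depends on the lengths of the 2 genes, so only the difference was compared, which was 1.44 (exact p = 0.0286, 0.0714 after Benjamini-Hochberg adjustment over the 5 pairs). With each library left out in turn it ran from 1.26 to 1.60.

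The log2 ratio of Ncoa2 to Ncoa3 was -0.98, -1.06, -0.87 and -0.48 in Setd1b cKO and -1.76, -1.41 and -1.31 in Setd1b WT. These did not overlap, with a difference of 0.65 (exact p = 0.0286, adjusted 0.0714). The pairs Kat6a and Kat6b, Sin3a and Sin3b, and Ep300 and Crebbp overlapped, with differences of 0.43, 0.29 and -0.28 (exact p = 0.229, 0.457 and 0.571). At this number of libraries no pair could pass the adjustment unless at least 3 of the 5 reached the smallest p.

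**Figure D4:**
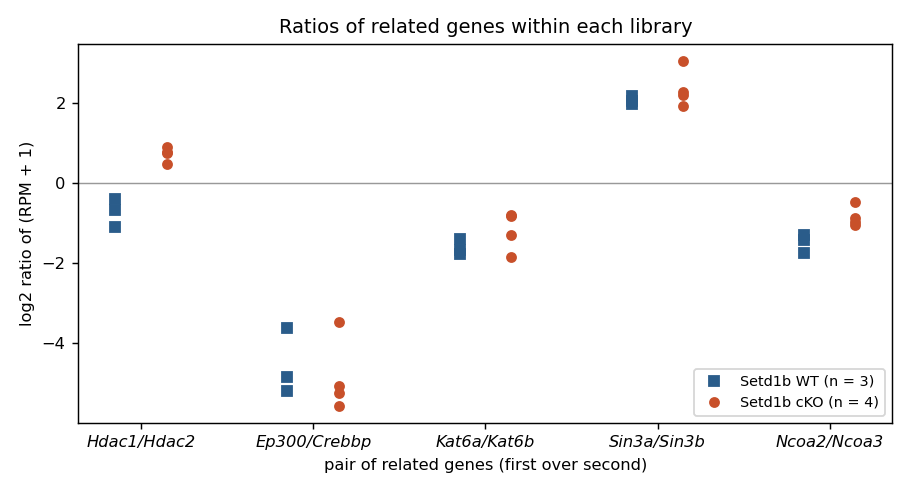
Log2 ratio of (RPM + 1) of the first gene of each pair over the second, for each Setd1b WT (squares, n = 3) and Setd1b cKO (circles, n = 4) library. The Hdac1 to Hdac2 ratio does not overlap between the genotypes, running from -1.09 to -0.40 in Setd1b WT and from 0.48 to 0.90 in Setd1b cKO.

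In Setd1b WT oocytes the levels per kilobase of exon spanned a wide range. The lengths are those of all annotated exons of a gene and not of the oocyte isoform, so the order is approximate. Hat1 was the highest at 68.8 ± 14.8 RPM per kb (SD, n = 3), and its libraries did not overlap those of the next gene, Kat8 at 40.8. Sin3a at 29.8 overlapped Kat8, and Crebbp at 17.2 lay below both and overlapped Sirt6. From Sirt6 at 10.5 through Hdac8 at 8.23 and Ncoa3 at 7.91 to Hdac2 at 7.85, neighbours in the order overlapped. Hdac1 followed at 6.08, ninth in order, with its libraries below those of Hdac2, and at the level of Setd1b cKO oocytes, 17.3 RPM per kb, it lay close to Crebbp. Sin3b, Sirt5, Sirt1, Sirt4 and Kat7 followed between 5.13 and 4.27, each overlapping its neighbour. The lowest of the 29 were Ep300 at 0.577, Hdac4 at 0.390 and Hdac9 at 0.228, with no overlap between neighbours. Crebbp was thus far above Ep300 in every library. Among the Setd1b cKO libraries the coefficient of variation was lowest for Sirt1, Hdac1 and Hdac8, at 1.92%, 4.17% and 5.38%, and highest for Sirt2, at 57.2%. The lowest values are near or below what counting error alone gives at their read numbers, so their order carries no meaning.

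The subunits and cofactor genes that work with these enzymes formed 4 lists of 107 genes in all, of which 78 were found by name and 75 were tested. Kat14 and Phf20 fell in Setd1b cKO, and Nmnat1 and Nmrk1 rose. The 2 higher and 2 lower calls of 75 stand beside 3.76% and 1.95% of all transcripts, and the median log2 fold change was 0.03, beside 0.12. With genes matched by position 96 were tested, and Ing4 was the third called higher. The list of NuRD, Sin3, CoREST and NCoR subunits also holds genes outside these complexes. Of its 37 genes tested in this way, 0 were called in limma at any fold and 0 by voom, 2 had an unadjusted p under 0.05, and the smallest adjusted p was 0.155. Over all transcripts 3.96% and 2.19% passed at any fold, and 21.7% had an unadjusted p under 0.05. Of 19 SAGA and ATAC subunits 1 was called lower. Of 31 subunits of the MYST complexes 1 was called higher and 1 lower. Of 9 cofactor genes 2 were called higher, and their median was 0.40.

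Kat14, a second acetyltransferase of the ATAC complex (chromosome 2, 144368939 to 144410489), was at 20.3, 26.3, 20.0 and 14.6 RPM in Setd1b cKO and at 107, 79.2 and 51.8 RPM in Setd1b WT. The genotypes were far apart, with a log2 fold change of -1.88 (SE 0.29, adjusted p by limma = 0.00581). It was past the threshold in 20 of 21 other settings, the exception being no filter on low values. Phf20, a subunit of the NSL complex that carries Kat8 (chromosome 2, 156196642 to 156309952), was at 162, 185, 198 and 147 RPM in Setd1b cKO and at 408, 342 and 356 RPM in Setd1b WT. It did not overlap either, with a log2 fold change of -1.09 (SE 0.20, adjusted p by limma = 0.0121), and the call was lost without Setd1b WT replicate 1 (adjusted p = 0.0660) or replicate 2 (0.0568).

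Both cofactor genes that rose belong to the synthesis of NAD, the cofactor of the sirtuins. Of 10 genes of NAD metabolism listed, 6 were tested, 2 were called higher, and 5 were above 0, beside 3.76% and 60.3% of all transcripts. This subset of the cofactor list was described after its values were seen and was not tested as a group. Nmnat1, which makes NAD in the nucleus (chromosome 4, 149467572 to 149485202), was at 77.9, 52.5, 75.6 and 80.3 RPM in Setd1b cKO and at 18.9, 22.8 and 37.7 RPM in Setd1b WT. All Setd1b cKO libraries were higher, with a log2 fold change of 1.44 (SE 0.27, adjusted p by limma = 0.0138). The call was lost without Setd1b WT replicate 1 (adjusted p = 0.0675), without replicate 2 (0.0737) and with no filter (0.0840). An opposite-strand transcript of up to 47.5 RPM overlaps Nmnat1, and the strand of the counting was not stated, so reads of the 2 strands cannot be told apart. Nmrk1, a nicotinamide riboside kinase (chromosome 19, 18631949 to 18652426), was at 132, 67.2, 76.5 and 96.8 RPM in Setd1b cKO and at 34.8, 53.2 and 32.2 RPM in Setd1b WT. It did not overlap, with a log2 fold change of 1.18 (SE 0.28, adjusted p by limma = 0.0341), but it kept its call in only 2 of the 7 settings that left out a library, with adjusted p of 0.0595 to 0.130 in the other 5. The call was also lost with centring on the median gene (0.0742) and with no filter (0.143), and an opposite-strand transcript of 19.7 RPM overlaps it.

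Ing4, an H3K4me3-binding subunit of HBO1 complexes (chromosome 6, 125039670 to 125049265), was matched by position and was at 155, 97.5, 70.5 and 182 RPM in Setd1b cKO. In Setd1b WT it was at 30.7, 32.5 and 46.2 RPM. The genotypes did not overlap, with a log2 fold change of 1.69 (SE 0.33, adjusted p by limma = 0.0145). Whether the Ing4 call holds with a library left out or with another scaling was not examined. Kat7, the acetyltransferase of the same complexes, was at -0.18.

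**Figure D5:**
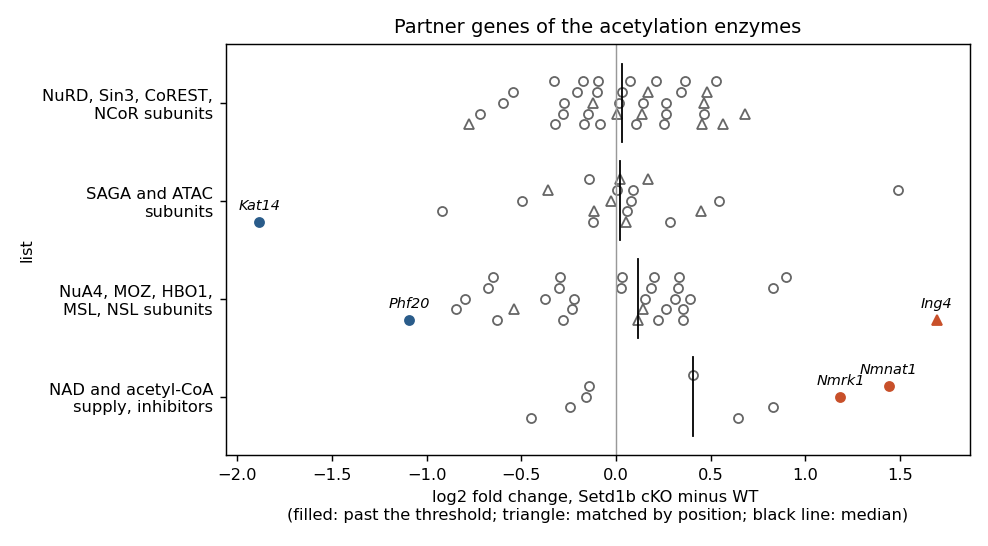
Log2 fold change, Setd1b cKO minus Setd1b WT, of the 96 partner genes tested, by list, with black lines at the medians, filled symbols past the threshold and triangles for genes matched by position. Kat14 at -1.88 and Phf20 at -1.09 lie lowest, Ing4 at 1.69, Nmnat1 at 1.44 and Nmrk1 at 1.18 are the called genes on the other side, and the deacetylase corepressor subunits spread on both sides of 0 with no filled symbol.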

How the data were processed

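The authors collected single GV oocytes, amplified the cDNA with the SMARTer Ultra Low kit and built libraries with the NEBNext kit. Reads were trimmed with trim galore and mapped with Hisat to GRCm38 with known splice sites, and hits of low mapping quality were removed, which lowers counts of genes with near-identical copies. Reads were quantified in SeqMonk over oocyte transcripts with isoforms merged and tested with a count model. The submitters' processing notes also name bcl2fastq 1.8.4 and featureCounts 1.4.4. The strand setting of the counting was not given in the sources used here. The authors deposited log2 RPM relative to the mapped reads of each library, in which 0 reads appear as 0.9 read. Each value was a whole number of reads (100% of values, within 0.01), from which library totals were recovered.

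RPM with 0 reads set to 0 were transformed to log2(RPM + 1) and fitted in limma 3.58.1 (R 4.3.3, lmFit and eBayes with trend, no covariates) over all transcripts past the filter, since the deposited values are log2 RPM. The recovered reads were fitted by voom as another setting. A call needed a Benjamini-Hochberg adjusted p under 0.05 and over 2-fold. The fit was tested on simulated data. Matching by position used GENCODE M21, the same strand and a shared part that was 0.5 or more of the combined span. Figures and ratios used Python 3.11.15. The genes and lists were chosen with earlier results of these data known. Given library by library were genes that were called, did not overlap between genotypes or had an absolute log2 fold change of at least 0.5, and 9 fixed genes (Hdac1, Hdac2, Hdac3, Sirt1, Ep300, Crebbp, Kat2a, Kat8 and Hat1). Partner genes were named where called. Hdac10 and 6 partner genes were not analysed here.

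The deviations of same-numbered libraries from their group means had correlations of 0.19, 0.29 and -0.13 for numbers 1 to 3, and that of Setd1b cKO replicate 4 with Setd1b WT replicate 3 was 0.61. Since 1 of the 3 was not above 0.1 and no label ties the numbers, the replicate number was not used as a pairing.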

Additional observations from a re-analysis of the deposited data

Results flagged for a closer look

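Of 33 acetylation and partner genes examined in the 4 Setd1b cKO libraries, 6 had 1 library far from the others. The 3 Setd1b WT libraries were too few to examine. A rate of about 1 in 20 by chance would hold only for genes that vary independently, which genes measured in the same libraries do not. The share among all transcripts was not computed, so the 6 cannot be set against a background. In 5 of the 6 genes replicate 4, the library with the fewest reads, was the low one. On the log2(RPM + 1) scale its gap to the nearest library, as a share of the whole range, was 0.944 for Hdac1, 0.992 for Hdac3, 0.842 for Crebbp, 0.859 for Sin3b and 0.848 for Ncor1 (matched by position). For Hdac1 this library was at 55.8 RPM, still above every Setd1b WT library, and for Crebbp it was at 98.9 RPM, below all of them. The sixth was Nmnat1, where replicate 2 at 52.5 RPM was the low one, with a share of 0.858. The cause of these gaps was not tested.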

How the results depend on the processing

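Of the acetylation genes 1 was called higher in 22 of 23 other settings, 2 with no fold threshold, and 0 lower in all 23. Among partner genes 2 were called higher and 2 lower. The count higher was 0 and the count lower 1 with no filter, where 33437 transcripts are tested and 174 are called higher and 129 lower, and with centring on the median gene 1 was called higher and 3 lower. With each library left out in turn the count higher ran from 0 to 2 and the count lower from 1 to 3. The Hdac2 log2 fold change was -0.13 with centring, -0.022 with the replicate block, and -0.071 to 0.098 with 1 library left out (below 0 without cKO replicate 4 or WT replicate 1). That of Crebbp was 0.065 with quantile normalisation, 0.071 scaled to reads within transcripts, 0.36 with the replicate block and -0.44 to 0.36 with 1 library left out (above 0 without cKO replicate 4, WT replicate 1 or WT replicate 2). That of Kat8 was 0.051 with the replicate block and -0.31 to 0.080 with 1 library left out (above 0 without cKO replicate 4 or WT replicate 1). Since number 4 has no WT library, the block drops cKO replicate 4 from the comparison. The Ep300 to Crebbp ratio ran from -0.73 to 0.19 over the libraries left out, with 0.19 without WT replicate 3. The cause of these sign changes was not tested. The replicate block left 1 acetylation gene higher and 0 lower, and 2 partner genes higher and 3 lower. Same-numbered libraries share only a number, and 1 of 3 correlated best with its own. Over all transcripts the block called 924 higher and 479 lower, voom on the recovered reads 443 and 328, and leaving out WT replicate 2 left 172 and 117. Without both libraries that stood apart it was 1015 and 522, with the same counts of acetylation and partner genes. Depth limits the genes below the filter, and among the tested acetylation genes intervals were as wide as -1.05 to 0.88 (Sirt2).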
